A study of Rattus norvegicus with 12 samples.

Results

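The red cell membrane and its skeleton are described here through 9 genes: ankyrin 1 (Ank1), beta spectrin (Sptb), beta adducin (Add2), protein 4.2 (Epb42), band 3 (Slc4a1), glycophorin C (Gypc), the Rh-associated glycoprotein (Rhag), and the erythroid transcription factors Tal1 and Gata1. A probe was taken when its gene name in the array design, or the current gene for which that name is a synonym, was one of these 9. The set is 9 of the 16246 current rat genes named on the array, and has 14 of the 41012 non-control probes, 1 each for Ank1, Sptb, Epb42, Gypc and Gata1, 2 each for Add2, Slc4a1 and Rhag, and 3 for Tal1. Epb42 was found under its older name Epb4.2.

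RNA of the left ventricle and of whole blood was hybridised to 12 one-colour Agilent rat arrays, 1 array for each of 12 pools. The rats were male Sprague-Dawley animals, aged 10 weeks and weighing 290 to 320 g when dosing began; the samples carry an age of 11 weeks. Treated rats received 300 mg per kg of oral amiodarone each day for 10 days, and controls received only its vehicle, methylcellulose at 1%. Each of the 4 groups, heart vehicle, heart amiodarone, blood vehicle and blood amiodarone, had 3 pools. How many rats made a pool, and whether heart and blood pools of the same number came from the same rats, is not listed in the sources used here, so p-values measure the spread between pools. Both tissues carried the marks of their labels: all 10 cardiomyocyte markers, such as Myh6 and Tnnt2, were well above background on all heart vehicle arrays, and none of them was so on all 3 blood vehicle arrays.

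In the mature red cell a mesh of spectrin lies under the lipid bilayer and is held to it by bridges between the mesh and proteins that cross the membrane. Ankyrin with protein 4.2 ties spectrin to band 3, the anion exchanger, and another junction with adducin, actin and protein 4.1 ties it to glycophorin C and band 3, while the Rh proteins sit in the ankyrin complex. GATA1 and TAL1 are DNA-binding proteins that switch on the genes of this program in erythroid precursors, and reticulocytes carry the remaining transcripts into the blood.

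The arrays differed in brightness, which bears on every value in blood. The 75th percentile of the processed signal was 24.0 ± 2.80 (SD, n = 3) in blood vehicle pools and 73.8 ± 15.6 (SD, n = 3) in blood amiodarone pools, against 143 ± 30.9 (SD, n = 3) and 130 ± 28.2 (SD, n = 3) in the heart groups. Differences are given after dividing each array by its own 75th percentile (scaled) and, in blood, also without it (unscaled). With scaling the median difference over all features tested was 0.44 on the log2 scale in blood and 0.02 in heart, and without scaling it was 2.04 in blood. The cause of the brightness difference was not tested. The signal of the 14 probes made up 0.230% to 0.285% of the summed signal of an array in blood vehicle pools and 0.0514% to 0.0931% in blood amiodarone pools. In whole tissue, fewer cells of a type and less RNA per cell cannot be told apart.

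Of the 9 genes, 8 had more signal in blood than in heart in the vehicle pools, and Gypc did not. Ank1, Rhag and Gata1 entered this test only through blood, where they were high, so nothing is read from the count. Over all features 81.1% differed between the tissues and 38.9% were higher in blood (limma over 12 arrays, adjusted p below 0.05). Without scaling the same 8 genes were higher in blood and Gypc was lower; 87.4% of features then passed, 14.7% higher and 72.6% lower in blood. Tissue and slide cannot be told apart, since each slide held 1 tissue.

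The upstream Add2 probe gave processed signals of 14025, 14268 and 24657 in vehicle pools 1, 2 and 3 of blood, and 92.9, 148 and 149 in those of heart. Adducin caps actin filaments and recruits spectrin to them, and its scaled difference between blood and heart was 9.62 ± 0.345 (SE, adjusted p = 3.16e-10). Epb42 gave 2593, 3265 and 5844 in blood and 17.8, 20.6 and 31.7 in heart, a difference of 9.90 ± 0.464 (SE, adjusted p = 2.50e-09). Sptb, the spectrin chain that carries the ankyrin and actin binding sites, gave 892, 774 and 841 in blood and 35.5, 40.7 and 61.3 in heart, a difference of 6.78 ± 0.322 (SE, adjusted p = 2.77e-09). For none of these genes did a blood pool overlap a heart pool.

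Ank1, Rhag and Gata1 were not well above background on any heart array, so their tissue differences are lower bounds. Each bound takes as the heart level the probe's own signal or, where it is higher, the lowest signal that counted as well above background on that array. Ank1 was at least 68.5-fold, Rhag at least 39.5-fold and Gata1 at least 417-fold higher in blood than in heart after scaling, and at least 11.6-fold, 6.72-fold and 71.0-fold without it. Band 3 was measured in both tissues with its downstream probe, at 7547, 7781 and 12487 in blood and 241, 177 and 341 in heart. Its difference of 7.76 ± 0.485 (SE, adjusted p = 2.71e-08) stood beside one of 7.58 ± 0.249 (SE, adjusted p = 1.71e-10) for the middle probe of Tal1.

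Gypc, whose protein links the membrane to protein 4.1 and is made in many cell types, ran the other way. Its signals were 177, 302 and 253 in heart vehicle pools and 13.8, 32.2 and 40.0 in blood vehicle pools. After scaling, the tissue difference did not pass the threshold (blood minus heart −0.63 ± 0.395, SE, adjusted p = 0.157, 95% interval −1.50 to 0.23), and without scaling it was called lower in blood at −3.19 ± 0.410 (SE, adjusted p = 1.92e-07). With a profile over the 12 arrays that correlated at −0.55 with the mean of the other 8, where each of those 8 correlated at 0.93 to 0.99, Gypc did not follow the set. These correlations describe profiles that share arrays and scaling.

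**Figure D1:**
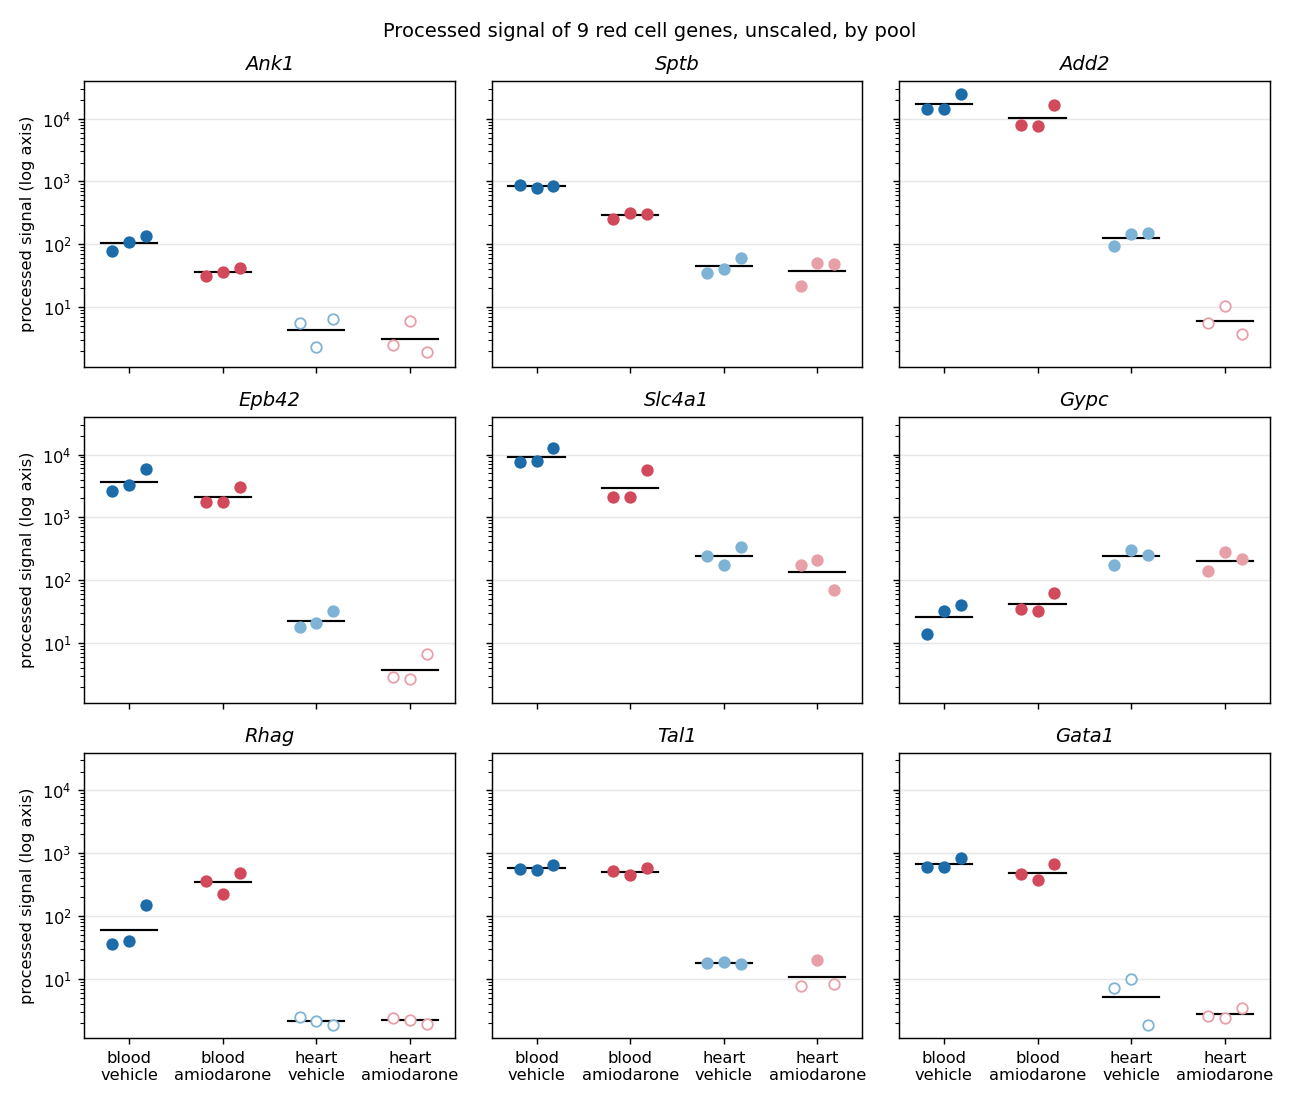
Processed signal on a log axis of the probe used for each of the 9 genes, for the 3 pools (points, pool 1 to 3 from left to right) of each group. Filled points are well above background and open points are not, and black lines are means of the log values; 8 genes are brighter in both blood groups than in heart, Gypc is brighter in heart, and Add2 and Epb42 go from filled to open points between heart vehicle and heart amiodarone.

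In the heart, amiodarone pools had less Add2 and Epb42 RNA, and the other 4 genes that could be tested did not pass the threshold. Over all 17464 features tested in heart, 8.57% passed and 4.23% were lower with amiodarone. Add2 and Epb42 were well above background on all 3 vehicle arrays and on 0 of 3 amiodarone arrays, so they entered the test only through the group in which they were high, and nothing is read from the count of 2 lower among 6 tested. Ank1, Rhag and Gata1 had no test in heart.

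The upstream Add2 probe gave 92.9, 148 and 149 in vehicle pools and 5.68, 10.5 and 3.75 in amiodarone pools of the heart. No treated pool was well above background, and every treated pool lay below every control pool. The fitted difference was −4.26 ± 0.264 (SE, adjusted p = 0.000325), and since the treated side is at background the fold is given as at least 11.7-fold lower. The downstream Add2 probe showed the same order of pools, at 8.44, 14.1 and 20.9 against 2.68, 2.56 and 2.21, but was well above background on only 2 of 3 vehicle arrays and was not tested. Within the first heart slide, which held 2 pools of each group, the upstream probe differed by −3.86, and within the second, with 1 pool of each, by −5.06.

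Epb42, which binds band 3 and ankyrin, gave 17.8, 20.6 and 31.7 in vehicle pools and 2.85, 2.63 and 6.68 in amiodarone pools of the heart. The groups did not overlap, no treated pool was well above background, and the level was at least 2.15-fold lower. Its fitted difference of −2.49 ± 0.452 (SE, adjusted p = 0.0181) no longer passed when vehicle pool 1 (adjusted p = 0.0756), vehicle pool 3 (0.0705) or amiodarone pool 1 (0.0527) was left out. It also did not pass with normexp background correction (−0.37, adjusted p = 0.221) or with no filter on dim probes (adjusted p = 0.0911). The within-slide differences were −2.74 and −1.99.

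The other heart values did not separate the groups. Slc4a1 gave 241, 177 and 341 in vehicle pools and 176, 208 and 68.6 in amiodarone pools, so that only the lowest treated pool stood apart. Its difference was −0.71 ± 0.446 (SE, adjusted p = 0.361, 95% interval −1.76 to 0.33). Sptb gave 35.5, 40.7 and 61.3 against 21.3, 49.8 and 48.4, a difference of −0.13 ± 0.327 (SE, adjusted p = 0.832, 95% interval −0.89 to 0.63). Gypc gave 177, 302 and 253 against 139, 276 and 221, a difference of −0.10 ± 0.183 (SE, adjusted p = 0.776). The middle Tal1 probe gave 17.9, 18.3 and 17.1 against 7.73, 20.0 and 8.15, with only amiodarone pool 2 well above background among the treated arrays, and a difference of −0.59 ± 0.266 (SE, adjusted p = 0.220).

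Some transcripts of red cells other than the 9 genes were also lower in the treated hearts, where 8.57% of all features were called and 4.23% were lower. Of haemoglobin, haem and red cell cytosol genes 7 of 19 tested were called, all lower, with a median of −0.32 against 0.02 for all features. Of other red cell membrane genes 3 of 20 were lower and 1 was higher, and of other erythroid transcription factors 1 of 12 was lower. Of 5 red cell markers on the array, 4 were tested and all 4 were called lower, including Hbb, a beta globin (−2.40 ± 0.154, SE, adjusted p = 0.000387), and Alas2, the first enzyme of haem synthesis in erythroid cells (−3.15 ± 0.229, SE, adjusted p = 0.000582). The summed level of the 5, in multiples of the array's 75th percentile, ran from 64.7 to 91.3 in vehicle pools and from 12.5 to 14.5 in amiodarone pools. Some markers of other cells moved as well after scaling. Of 6 tested for monocytes and macrophages 2 were higher, with a summed level from 33.7 to 47.4 in vehicle pools and from 61.1 to 70.8 in amiodarone pools. Of 5 tested for platelets and megakaryocytes 2 were higher and 1 lower (12.3 to 12.9 and 17.3 to 21.7), and of 3 for neutrophils 2 were higher and 1 lower (1.67 to 1.82 and 1.93 to 2.88). None was called of 3 tested for T cells, 5 for natural killer cells and 6 for mast cells, basophils and eosinophils. Of 10 for cardiomyocytes 1 was higher, and of 7 for endothelium 1 was lower. The part of any of these cells in the Add2 and Epb42 results was not tested.

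In blood, 7 of the 9 genes were lower in amiodarone pools after scaling and the median difference was −2.36, against 0.44 for all features. The share of all features that passed is high here: of 15661 features tested 67.4% passed, 27.1% lower and 40.3% higher. Without scaling 77% passed, 1.96% lower and 75% higher, and of the 9 genes 3 stayed lower, Ank1, Sptb and Slc4a1, 1 was higher, Rhag, and 5 did not pass, with a median of −0.76 against 2.04 for all features. The 5 red cell markers were all lower after scaling, with a summed level from 10853 to 17762 multiples of the 75th percentile in vehicle pools and from 2751 to 5015 in amiodarone pools, and their median difference was −2.00 scaled and −0.39 unscaled. Markers of white cells were higher after scaling in 6 of 7 tested for neutrophils (summed level 62.4 to 109 in vehicle and 256 to 406 in amiodarone pools), 6 of 8 for T cells (227 to 275 and 291 to 320 multiples) and 5 of 7 for natural killer cells (40.3 to 51.9 and 90.2 to 105 multiples). For monocytes and macrophages 5 of 6 were higher and C1qb was lower (−2.21), with sums of 208 to 273 and 517 to 612 multiples, and for B cells 1 of 5 was higher, with overlapping sums of 27.2 to 33.9 and 29.9 to 33.1 multiples. Their part in the results on the 9 genes was not tested.

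Ank1, Sptb and Slc4a1 were lower with amiodarone with and without scaling, and are grouped here by that outcome. Ank1 gave 78.3, 108 and 133 in vehicle pools and 31.4, 36.0 and 42.0 in amiodarone pools, with no overlap. It differed by −3.12 ± 0.311 (SE, adjusted p = 0.000922) scaled and by −1.52 ± 0.346 (SE, adjusted p = 0.000355) unscaled. Ankyrin 1 is the adaptor that joins the spectrin mesh to band 3.

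Sptb gave 892, 774 and 841 in vehicle pools of blood and 249.96, 312 and 308 in amiodarone pools, again with no overlap. The difference was −3.13 ± 0.256 (SE, adjusted p = 0.000922) scaled and −1.53 ± 0.333 (SE, adjusted p = 0.000221) unscaled. Within the blood slide that held 2 pools of each group the scaled difference was −3.17, and within the slide with 1 pool of each it was −3.07.

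Slc4a1 was measured by a downstream and an upstream probe. The downstream probe gave 7547, 7781 and 12487 in vehicle pools and 2124, 2115 and 5749 in amiodarone pools. Every treated pool was below every control pool, though the third pool was the highest of both groups. The difference was −3.21 ± 0.418 (SE, adjusted p = 0.00120) scaled and −1.61 ± 0.399 (SE, adjusted p = 0.000825) unscaled. The upstream probe gave 163, 144 and 361 against 54.3, 58.8 and 155, with a scaled difference of −2.97 ± 0.486 (SE, adjusted p = 0.00234) and an unscaled one of −1.37 ± 0.430 (SE, adjusted p = 0.00603).

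Add2 and Epb42, the genes that were lower in the heart, were lower in blood only with scaling. The upstream Add2 probe gave 14025, 14268 and 24657 in vehicle pools and 8027, 7749.8 and 16380.4 in amiodarone pools, overlapping without scaling. Its difference was −2.36 ± 0.356 (SE, adjusted p = 0.00173) scaled and −0.76 ± 0.379 (SE, adjusted p = 0.0730) unscaled. The downstream Add2 probe differed by −1.88 ± 0.267 (SE, adjusted p = 0.00155) scaled and −0.27 ± 0.361 (SE, adjusted p = 0.503) unscaled. Epb42 gave 2593, 3265 and 5844 against 1736, 1739 and 3006, overlapping without scaling, and differed by −2.42 ± 0.372 (SE, adjusted p = 0.00184) scaled and −0.82 ± 0.378 (SE, adjusted p = 0.0538) unscaled.

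Both transcription factors were called lower only with some scalings. With spike-in scaling Gata1 differed by −0.80 (adjusted p = 0.120) and Tal1 by −0.51 (adjusted p = 0.332), and as the mean of its probes Tal1 differed by −0.58 (adjusted p = 0.0365). Gata1 gave 613, 609.9 and 829 in vehicle pools of blood and 471, 372 and 676 in amiodarone pools, which overlap. The scaled difference was −2.06 ± 0.242 (SE, adjusted p = 0.00102) and the unscaled one −0.46 ± 0.351 (SE, adjusted p = 0.240). The middle Tal1 probe gave 557, 537 and 649.7 against 519, 444 and 581, with −1.78 ± 0.193 (SE, adjusted p = 0.000930) scaled and −0.18 ± 0.335 (SE, adjusted p = 0.645) unscaled. GATA1 and TAL1 are also expressed in the platelet lineage, and 6 of 9 tested platelet and megakaryocyte markers were higher with amiodarone after scaling, their summed level running from 1520 to 2381 in vehicle pools and from 2619 to 4370 in amiodarone pools in multiples of the 75th percentile. The platelet marker Gp1ba was not well above background in vehicle pools. GATA1 also acts in mast cells, basophils and eosinophils, of whose 6 tested markers 3 were lower, the summed level running from 26.3 to 39.8 and from 22.3 to 26.4, with Cpa3, Ms4a2, Fcer1a and Epx at background in both groups. The part of these cells in the Gata1 and Tal1 values was not tested.

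Gypc, and Rhag by its downstream probe, were not called after scaling. Gypc gave 13.8, 32.2 and 40.0 in vehicle pools of blood and 34.6, 32.5 and 61.6 in amiodarone pools, and its difference was −0.95 ± 0.471 (SE, adjusted p = 0.107) scaled and 0.65 ± 0.403 (SE, adjusted p = 0.147) unscaled. The direction turned with the scaling. Without vehicle pool 1, the dimmest, the scaled difference was −1.47 (adjusted p = 0.00991), and in the authors' value table, which they normalized, Gypc was called lower at −1.77 (adjusted p = 0.00542).

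Rhag, the ammonia channel that carries the Rh complex to the membrane, was the one gene of the set whose brightest probe had a positive scaled difference. That is the downstream probe, while the upstream probe was called lower after scaling (−1.44, adjusted p = 0.0381). The downstream probe gave 35.6, 39.9 and 152 in vehicle pools and 361, 227 and 492 in amiodarone pools, with every treated pool above every control pool before scaling. The unscaled difference was 2.52 ± 0.455 (SE, adjusted p = 2.71e-05). The scaled one was 0.91 ± 0.533 (SE, adjusted p = 0.159), and without vehicle pool 3 it was 1.55 (adjusted p = 0.00527). Its within-slide differences after scaling were 1.33 on the slide with 2 pools of each group and 0.08 on the other, and with the slide as a block the scaled difference passed (adjusted p = 0.0345).

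**Figure D2:**
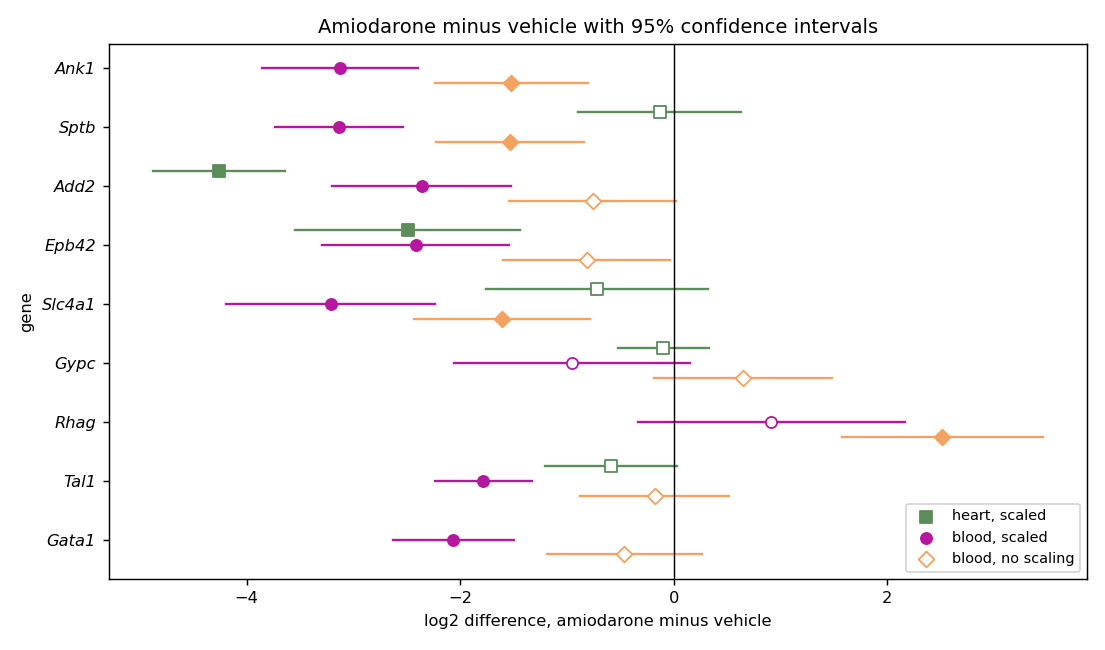
Log2 difference between amiodarone and vehicle pools of each gene, with 95% confidence intervals from limma, in heart with scaling (squares), blood with scaling (circles) and blood without scaling (diamonds). Filled marks passed an adjusted p of 0.05 and open marks did not, and Ank1, Rhag and Gata1 have no square because they were not tested in heart; in blood 7 genes are left of 0 and filled with scaling, of which Ank1, Sptb and Slc4a1 remain so without it.

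The probes of Rhag, Tal1, Add2 and Slc4a1 allow a comparison that needs no scaling, the ratio of a pair of probes of 1 gene on the same array. Their sequences follow because the probes of Rhag and those of Tal1 did not move together, and the Add2 and Slc4a1 probes are given beside them. They are given 5′ to 3′ as the array carries them, in lower case, whole where the probe covers more of the genome than its own 60 bases, as a probe across an intron does, and otherwise as bases 31 to 60. Capitals mark AATAAA, the usual polyadenylation signal, which only the upstream Add2 probe holds among the 14.
Rhag downstream probe: atattcttatccttgataccttcttatggt
Rhag upstream probe: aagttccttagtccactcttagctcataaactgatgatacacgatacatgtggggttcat
Tal1 first probe: tgatgttacagtgtcatgttggacagtatg
Tal1 middle probe: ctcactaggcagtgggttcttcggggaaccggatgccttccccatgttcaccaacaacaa
Tal1 last probe: cctctaaaaactgtacatgaaatttttgta
Add2 upstream probe: agtgtccgtagatgggaatgcAATAAAggt
Add2 downstream probe: acagttacaaggacaaaaccgagtcagtta
Slc4a1 downstream probe: cccagctaaactgagtcttgggggagcgaa
Slc4a1 upstream probe: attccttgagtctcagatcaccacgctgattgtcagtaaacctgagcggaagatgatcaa

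In the rat build rn4 of the deposited files, the Rhag probes lie on the minus strand of chromosome 9, at chr9:16209538-16209597 (downstream) and chr9:16215069-16215951 (upstream). The Tal1 probes lie on the plus strand of chromosome 5, at chr5:135431162-135431221, chr5:135437047-135438215 and chr5:135443049-135443108. Those of Add2 are on the plus strand of chromosome 4, at chr4:120266375-120266434 and chr4:120275015-120275074, and the design ties them to different transcript records of the gene. Those of Slc4a1 are on the minus strand of chromosome 10, at chr10:91455352-91455411 (downstream) and chr10:91458828-91459400 (upstream). Single probes measured Ank1 (chr16:73375762-73376097, minus), Sptb (chr6:99196669-99197135, minus), Epb42 (chr3:107806571-107806630, minus), Gypc (chr18:24975734-24975793, minus) and Gata1 (chrX:26570758-26571261, plus). Which exon or UTR each probe lies in was not analysed here, as no annotation of that build was used.

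In blood the downstream Rhag probe was brighter relative to the upstream probe in treated pools. Their ratio was 1.38, 0.785 and 1.54 in vehicle pools and 7.55, 4.92 and 5.99 in amiodarone pools, a change of 2.35 on the log2 scale. The lowest treated ratio was above the highest control ratio. The upstream probe alone gave 25.8, 50.9 and 98.3 against 47.8, 46.2 and 82.2, and its scaled difference of −1.44 ± 0.505 (SE, adjusted p = 0.0381) had the opposite sign to that of the downstream probe, while its unscaled one was 0.16 ± 0.425 (SE, adjusted p = 0.738). The sign of the scaled Rhag value thus differs between its probes.

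Tal1 split in the same manner between its middle and last probes. The last probe gave 21.5, 17.0 and 27.1 in vehicle pools of blood and 119, 56.3 and 149.5 in amiodarone pools, higher in every treated pool. Its unscaled difference was 2.22 ± 0.387 (SE, adjusted p = 2.00e-05) and its scaled one 0.62 ± 0.278 (SE, adjusted p = 0.0845). The ratio of the last to the middle probe was 0.0385, 0.0317 and 0.0418 in vehicle pools and 0.228, 0.127 and 0.257 in amiodarone pools, a change of 2.40 on the log2 scale. The first Tal1 probe was not well above background on any of the 12 arrays.

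The pairs of Add2 and Slc4a1 moved by less. The ratio of the upstream to the downstream Add2 probe was 5.33, 5.98 and 6.11 in vehicle pools and 3.52, 4.08 and 4.95 in amiodarone pools, a change of −0.48 with no overlap. The ratio of the downstream to the upstream Slc4a1 probe was 46.2, 53.9 and 34.6 against 39.1, 36.0 and 37.0, which overlap. An exact permutation test of 3 against 3 pools cannot give a two-sided p below 0.1, so no p is given for a ratio.

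Separation of this kind is common in these data. Of all 1343 pairs of probes of 1 gene that were well above background on the 6 blood arrays, 38.7% had ratios that did not overlap between the groups, while the change was at least 2 on the log2 scale in 5.96%, Rhag and Tal1 among them. The median size of the change over all pairs was 0.26.

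**Figure D3:**
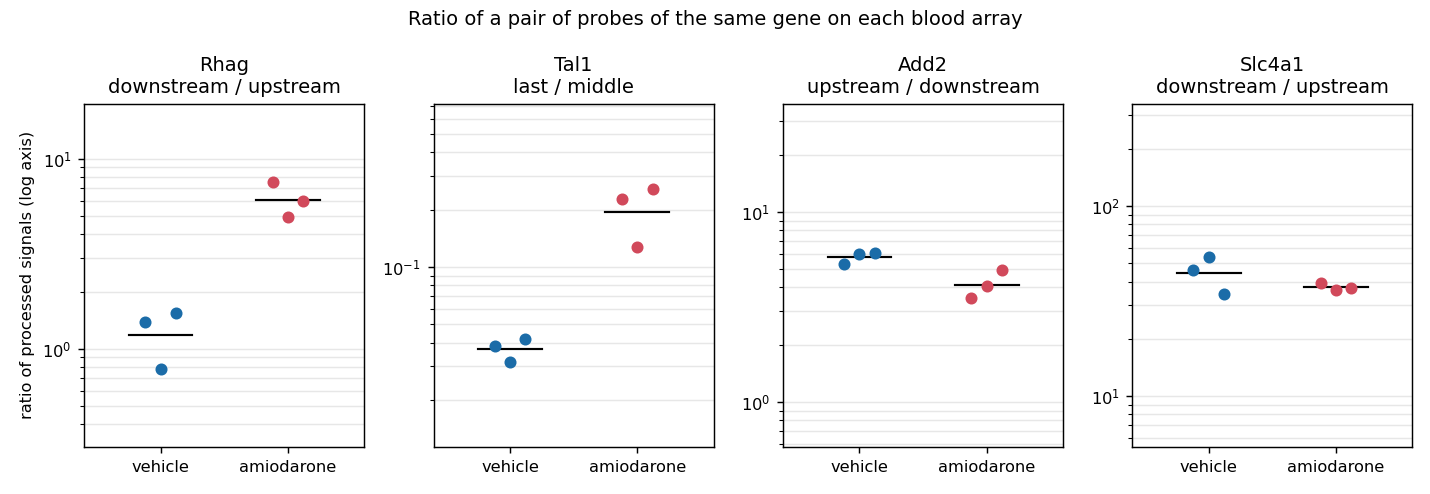
Ratio of the processed signals of a pair of probes of the same gene on each blood array, on log axes that all span the same fold range; points are pools and black lines are means of the log ratios. The Rhag ratio goes from 0.785 to 1.54 in vehicle pools to 4.92 to 7.55 in amiodarone pools and the Tal1 ratio from 0.0317 to 0.0418 to 0.127 to 0.257, while the Slc4a1 ratios overlap.

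A further comparison within arrays set each probe against the genes of haemoglobin, haem synthesis and the red cell cytosol, all 24 of whose tested members were lower in blood after scaling (median −1.99) and 3 of which were lower without it (median −0.39). On each blood array the median log2 signal of those 24 genes was subtracted from that of the probe. Over all features 75.9% did not overlap between the groups on this measure, in either direction, so nothing is read from separation alone. The median change of all 15646 features on it was 2.40.

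Against that reference, Ank1, Sptb and Slc4a1 lay lower in treated pools. The change was −1.16 for Ank1, −1.17 for Sptb, and −1.25 and −1.005 for the downstream and upstream probes of Slc4a1, with all treated pools below all control pools. Epb42 (−0.45) and the upstream Add2 probe (−0.40) were lower too, with no overlap, whereas the downstream Add2 probe (0.09) overlapped. Gata1 (−0.10) and the middle Tal1 probe (0.18) overlapped. The downstream Rhag probe (2.88), the last Tal1 probe (2.58) and Gypc (1.01) were higher in every treated pool relative to the haem genes. Against the median change of all features, 2.40, Gypc thus lay lower and those Rhag and Tal1 probes lay above it. The upstream Rhag probe (0.53) overlapped between the groups.

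**Figure D4:**
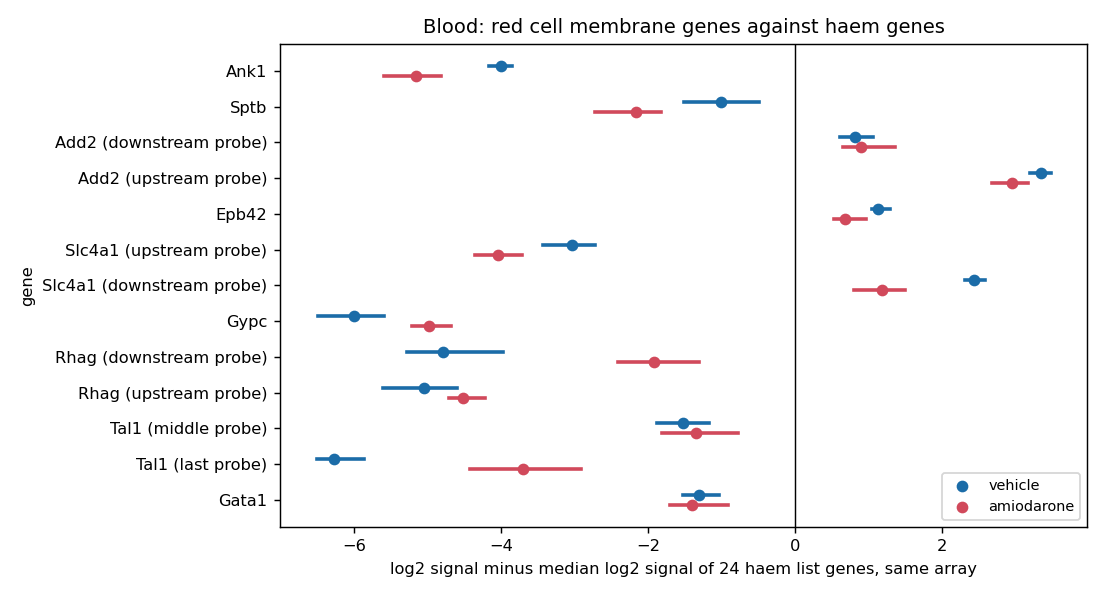
Log2 signal of each probe in blood minus the median log2 signal of 24 haem list genes on the same array; points are means of 3 pools and bars run from the lowest to the highest pool. Treated pools lie left of the control pools for Ank1, Sptb, Slc4a1, Epb42 and the upstream Add2 probe, and right of them for Gypc, the downstream Rhag probe and the last Tal1 probe.

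The drug effect in blood was set against that in heart in 1 fit of the 12 arrays, where 46.5% of 20051 features passed, 24.8% with a lower effect in blood and 21.7% with a higher one. Of the 9 genes 5 passed, 4 with a lower effect in blood and 1 with a higher one, but for Ank1 and Add2 the heart side was at background, in both groups and in treated pools, so no difference of effect is shown for these. The effect was lower in blood by −3.00 ± 0.456 for Sptb (SE, adjusted p = 0.000739), −2.50 ± 0.686 for Slc4a1 (SE, adjusted p = 0.0131) and −1.19 ± 0.352 for the middle probe of Tal1 (SE, adjusted p = 0.0178). For that Tal1 probe only 1 of 3 treated heart arrays was well above background. The last Tal1 probe, at background in treated hearts, gave 0.94 (adjusted p = 0.0817), and the mean of the Tal1 probes gave −0.13 (adjusted p = 0.747). Without scaling, where 63.9% passed and 0.982% had a lower effect in blood, Sptb kept its call at −1.27 (adjusted p = 0.0336), Slc4a1 did not pass (−0.76, adjusted p = 0.303) and Tal1 turned to 0.54 (adjusted p = 0.367). Another 3 genes passed with a higher effect in blood without scaling, Add2 at 3.63 (adjusted p = 4.56e-05), Rhag at 2.47 (adjusted p = 0.00158), whose heart side was at background, and Epb42.

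For Add2 the fit gave an effect 1.90 ± 0.488 (SE, adjusted p = 0.00967) less negative in blood than in heart. Its treated heart pools were at background, so the fitted value rests on background signals there. With background correction by normexp the difference was −0.29 and did not pass (adjusted p = 0.416). For Ank1 the fit gave −2.75 ± 0.682 (SE, adjusted p = 0.00819), but its heart side was below background in both groups, so this value does not measure a heart effect. Epb42 fell in both tissues after scaling, with effects that differed by 0.07 ± 0.657 (SE, adjusted p = 0.933, 95% interval −1.37 to 1.51). Its treated heart pools were at background too, and the difference passed in opposite directions without scaling (1.81, adjusted p = 0.00939) and with normexp (−1.25, adjusted p = 0.00516).

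The order of the 4 groups after scaling was the same for 5 genes measured in both tissues: blood vehicle, blood amiodarone, heart vehicle, heart amiodarone. For Add2 and Epb42 no pools of neighbouring groups overlapped, but their treated heart pools were at background, so the last step compares signal with background. The share of all features with such an order was not counted, and nothing is read from it. For Sptb, Slc4a1 and Tal1 the heart groups overlapped. Gypc had the order heart vehicle, heart amiodarone, blood vehicle, blood amiodarone, in which the pools of each group overlapped those of the next.

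Other genes of the membrane gave a mixed picture. Of 32 listed, 24 were tested in blood. With scaling 12 were lower and 6 higher, against 27.1% and 40.3% of all features, and the median was −0.85 against 0.44. Without scaling 2 were lower and 12 higher, against 1.96% and 75% of all features, and the median was 0.75 against 2.04. Tspan33 (−1.67) and the water channel Aqp1 (−2.49) were lower after scaling, and the mechanically gated channel Piezo1, not well above background in vehicle pools, was at least 1.35-fold higher. In heart 20 were tested, with 3 lower, Rhd (−2.46 ± 0.216, SE, adjusted p = 0.00113), the Rh antigen carrier, Bcam (−0.92) and Xk (−0.92), and 1 higher, Aqp1 (0.64). Of all features in heart 8.57% were called and 4.23% were lower.

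Homologues of the 9 genes that serve other tissues had a median difference in blood near that of all features after scaling. Of 11 tested there 3 were higher and 4 lower with scaling, against 40.3% and 27.1% of all features, and their median was 0.40 against 0.44. The non-erythroid spectrin chains Sptan1 (1.48) and Sptbn1 (1.48) were higher, as was Slc4a2, an anion exchanger related to band 3, which was not well above background in vehicle pools and was at least 1.99-fold higher, while Epb41l1 (−0.92) was lower. Without scaling 9 of the 11 were called, all higher, against 75% of all features. Slc4a2 and Rhbg were not well above background in any vehicle pool of blood. They entered the test only through the amiodarone group, in which they were high, which limits these counts. In heart 2 of 14 were called, Tgm1 (−2.39) and Epb41l3 (−1.09), both lower, against 8.57% of all features called and 4.23% lower.

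Among 13 other erythroid transcription factors tested in blood, 5 were lower and 4 higher after scaling, against 27.1% and 40.3% of all features. Their median was 0.37, against 0.44 for all features. Gfi1b (−1.65), Bach1 (−2.22) and Klf1 (−2.00), the erythroid Kruppel-like factor, were lower and Runx1 (1.01) was higher. Without scaling 8 of the 13 were called, all higher, against 75% of all features. In heart, where 8.57% of all features were called and 4.23% were lower, 1 of 12 was called, Klf1 (−1.21 ± 0.179, SE, adjusted p = 0.00885). Of the haemoglobin, haem and cytosol genes 7 of 19 were called in heart, all lower, led by Hbb, Alas2, the transferrin receptor Tfrc (−3.32 ± 0.270, SE, adjusted p = 0.000914) and Hbb-b1 (−1.40). In blood, Tfrc (−2.24), Hbb-b1 (−1.71), Fech (−2.75), which inserts iron into haem, and Hbe1 (−2.46) had the smallest p of that list.

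The genes whose scaled profile over the 12 arrays was most like the mean profile of the 9 were Car2, Isg20, Parvb, Klf1, Rnf10 and Urah, with Pearson r from 0.997 to 0.998 among 7765 genes tested in both tissues. The points share arrays and are dominated by the distance between the tissues. Car2, the carbonic anhydrase of red cells, differed by −0.93 in heart and −2.00 in blood after scaling, and Urah by −1.30 and −2.81.

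The promoters of the set were searched for the sites that GATA1, TAL1 and KLF1 are known to bind. RefSeq promoter windows of build GRCr8, from 250 bases before to 50 bases after a start, were found for 7 of the 9 genes and not for Ank1 and Slc4a1. AGATAA, on either strand, was in the windows of 2 genes, Sptb and Add2, against 11.6% of all 33469 windows. CCACACCC, a CACCC box, was in that of Add2, against 3.22%, and CANNTG, the E-box, was in 6, against 72.1%. The composite of an E-box part and a GATA motif was in none of the 7, against 0.872%. These matches overlap no other of the 4 motifs in the stretches below, which are the 100 bases before each start and are shown because they hold the GATA motif, with AGATAA, its reverse complement or the CACCC box in capitals.
Sptb, chr6:101170279-101170378, minus strand: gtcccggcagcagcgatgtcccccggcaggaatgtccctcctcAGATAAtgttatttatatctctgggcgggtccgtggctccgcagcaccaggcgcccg
Add2, chr4:120054778-120054877, plus strand: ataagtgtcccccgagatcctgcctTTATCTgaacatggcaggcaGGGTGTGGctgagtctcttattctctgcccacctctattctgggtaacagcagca

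The Sptb motif begins 57 bases before the start, and in Add2 the GATA motif begins 75 and the CACCC box 55 bases before it. A match is a description of letters in the window. One probe of the set also falls in a window: bases 8 to 60 of the first Tal1 probe, the one that was at background on all arrays, are found in the RefSeq window upstream of the Tal1 start, beginning 250 bases before it.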

How the data were processed

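The 9 genes and the lists beside them were chosen with earlier results of these data known. Signals are the processed intensity of each spot, which per the file headers Feature Extraction 9.5.1.1 made by subtracting background, with arrays not normalized to each other. The deposited values of the authors are a normalized intensity, with heart and blood normalized separately, and were an alternative only. Probes were named from accession, symbol or synonym. Here log2 signals were scaled by each array's 75th percentile. Probes entered a tissue's fit if at least 1 group had them well above background on each of 3 arrays, and a gene was represented by its brightest passing probe. Each tissue was fitted with limma 3.58.1 in R 4.3.3 (two-sided, Benjamini-Hochberg over all features, adjusted p below 0.05), and the tissues were compared in 1 fit of 12 arrays. Code was tested on simulated data.

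The named genes are the 9 with every probe, up to 4 genes with the smallest p past the threshold per list and tissue, and the 6 most alike in profile; a gene withheld for evaluation is not reported here. In all 14 lists stood beside the set, of which markers of other cell types are given where they bear on a value. Alternatives covered scaling, background, filter, probe choice, slide, replicate block and single pools. The number of arrays limits the precision.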

Additional observations from a re-analysis of the deposited data

Results flagged for a closer look

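The fit of 12 arrays called a difference between the amiodarone effects in blood and heart for 5 of the 9 genes. The blood effect minus the heart effect, on the log2 scale after scaling, was −3.00 for Sptb, −2.75 for Ank1, −2.50 for Slc4a1, −1.19 for Tal1 and 1.90 for Add2. For Ank1 the heart side was at background in both groups, and for Add2 in the treated group, so for these genes no difference of effect is shown, and Add2 turned to −0.29 (adjusted p = 0.416) with normexp. For Tal1 only 1 of 3 treated heart arrays was well above background, and the mean of its probes gave −0.13 (adjusted p = 0.747). Without scaling 4 genes were called, of which Sptb alone was lower in blood, at −1.27. Over all features 46.5% passed the same test with scaling and 63.9% without it.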

How the results depend on the processing

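In heart, the count of lower genes was 2 in the reported setting, 1 with normexp, 1 without a filter, 0 with the stricter filter, which keeps 3 of the genes and neither Add2 nor Epb42, and 1 to 2 when single pools were left out. Over all features 8.57%, 8.44%, 0.828%, 8.70% and 2.81% to 7.32% passed in these settings, in that order and in either direction. In blood the count of called genes was 7, became 4 without scaling, and lay between 6 and 9 in every other alternative, single pools included. Of all features 67.4%, 77.0% and 52.8% to 76.6% passed in these settings, in that order. With spike-in scaling the blood count was 6, of which 5 were lower and Rhag was higher, and 68.0% of all features passed. The difference between tissues was called for 5 genes, for 3 with spike-in scaling, 1 of them lower in blood, and for 2 with the stricter filter, and the comparison of blood with heart for 8, with 2 of 3 tested under the stricter filter. For the difference between tissues 46.5%, 46.5% and 59.1% of all features passed, in that order. For blood against heart 81.1% passed in the reported setting. With the replicate block the counts were 2, 9, 5 and 8, the blood count then including Gypc (−0.95, adjusted p = 0.0174) and Rhag (0.91, adjusted p = 0.0445). Of all features 3.99% then passed in heart, 68.5% in blood and 45.9% for the difference between tissues. Same-numbered pools correlated at −0.16, −0.24 and 0.32 in heart and 0.08, 0.17 and 0.31 in blood. The treated pool closest to a vehicle pool bore its number for heart pool 3 and blood pools 2 and 3. In each tissue pool 3 of both groups shared a slide without the other pools. These values therefore cannot decide whether the numbers pair the pools. In the blood-versus-heart comparison a random slide block, an alternative chosen after seeing the data, also gave 8.

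Signs turned for these values. In heart Gypc was 0.0031 with spike-in scaling and −0.22 to 0.076 over the fits without 1 pool, and Sptb was 0.026 with normexp and −0.39 to 0.16, including 0.10, over those fits. In blood Gypc was 0.65 without scaling and 0.32 with spike-in scaling, and Rhag was −0.26 as the mean of its probes. For the difference between tissues, Gypc was 0.88 without scaling and 0.31 with spike-in scaling, Tal1 0.54 and Gata1 0.43 without scaling, Add2 −0.29 with normexp, and Rhag −0.054 as the mean of its probes. That of Epb42 was −0.050 with quantile scaling, −1.25 with normexp, −0.36 in the authors' value table and −0.34 to 0.57 without 1 pool, below 0 in 5 of 12 such fits. The cause was not tested.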
